A study of Cicer arietinum with 4 samples.

Results

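ACTIN and RS3A are 2 of the 28783 genes in the deposited expression table of chickpea ovules, taken by their gene names as genes that often serve as internal controls. Both were also among the 17849 genes tested, which had at least 1 FPKM (sequenced fragments relative to transcript length and to a library's mapped total) in 2 or more libraries. Total RNA came from ovules of chickpea (*Cicer arietinum*), cultivar ICC4958, the structures that hold the egg cell and become seeds. Post-fertilization ovules were taken from half-opened flowers and pre-fertilization ovules from closed buds, with 2 libraries per group. Flower stage and fertilization therefore cannot be told apart, and the labels do not say whether the libraries of a group came from separate plants. The libraries are called post A, post B, pre A and B, with letters that only tell columns apart. P-values measure the spread between these libraries, which may be technical.

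Actin is the protein of the microfilaments, along which plant cells move organelles and vesicles and by which they direct cell expansion. Plants carry several actin genes, which differ in the organs where they are most active. RS3A carries the name of ribosomal protein S3a, a part of the small ribosomal subunit that every growing cell makes in quantity. Transcripts of both kinds are widely used as loading and normalization controls, a use that assumes a level that stays even across the samples compared.

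The libraries differed in ways that bear on a level. Depth relative to pre A was estimated from genes detected but under 0.3 FPKM in both libraries, by the most common ratio of their values. That assumes the genes at this ratio hold equal numbers of fragments in both. Relative depth came to 1.01 in post A, 1.11 in post B and 0.549 in pre B, and absolute depth is unknown. Genes spanning under 300 bp, together with those given no position, held 72.1% and 82.6% of the summed FPKM in post A and B, against 62.9% and 69.3% in pre A and B. No source used here states whether the authors scaled the libraries to each other. Median-of-ratios factors compare each gene detected in every library with its geometric mean and take the median. They were 1.002 in post A, 1.001 in post B, 1 in pre A and 0.997 in pre B. Summed FPKM ran from 1483036 in pre A to 3574218 in post B. The deposited values were thus already level by that measure, and they are called the authors' scaling below. The labelled tissue was not checked against marker genes, because the gene names name none that defines an ovule.

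ACTIN stood higher in post-fertilization ovules. It had 200.9 FPKM in post A and 280.8 FPKM in post B, against 47.7 FPKM in pre A and 66.3 FPKM in pre B. Both post-fertilization libraries lay above both pre-fertilization libraries, as did the libraries of one group above the other, in either direction, for 75.7% of all tested genes. The smallest ratio between a post- and a pre-fertilization library was 3.03 and the largest 5.89. The higher library of a group exceeded the lower by 1.40 times after fertilization and by 1.39 times before it.

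The mean ACTIN level was 240.9 ± 56.5 FPKM after fertilization and 57.0 ± 13.1 FPKM before (SD, n = 2 each), a 4.23-fold difference. On the log2(FPKM + 1) scale the change was 2.06, with a standard error of 0.24 and a 95% interval from 1.42 to 2.70 (limma adjusted p = 0.00724). ACTIN was the 1 gene of the pair that passed the adjusted p threshold of 0.05, which 36.5% of all tested genes passed and 21.0% passed with a rise. Its log2 fold change exceeded that of 95.1% of the tested genes. In bulk ovule tissue, more cells with the transcript and more transcript per cell cannot be told apart.

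The ACTIN call was lost without pre A (log2 fold change 1.83) and without pre B (log2 fold change 2.29), fits in which only the 2 post-fertilization libraries give the spread. Calls over the whole table also fell in both fits. The ACTIN call was also lost with no filter on low values (limma adjusted p = 0.0618), where 2660 of 28783 genes were called, against 6522 of 17849 in the main fit. It was lost too with each library set to the same summed FPKM over all genes (log2 fold change 1.29, limma adjusted p = 0.0613), where 4940 genes were called. That sum is held mostly by the short or unplaced genes named above.

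RS3A was the more abundant gene and the more even one. It had 954.7 FPKM in post A and 838.8 FPKM in post B, against 1164 FPKM in pre A and 1205 FPKM in pre B. Here both post-fertilization libraries lay below both pre-fertilization libraries. The smallest ratio of a pre- to a post-fertilization library was 1.22 and the largest 1.44, and within a group the higher library exceeded the lower by 1.14 times after fertilization and 1.04 times before.

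The mean RS3A level was 896.7 ± 81.9 FPKM after fertilization and 1184 ± 29.0 FPKM before (SD, n = 2 each). The log2 fold change of -0.40 (standard error 0.19) did not pass the test (limma adjusted p = 0.153). With the authors' scaling its 95% interval ran from -0.90 to 0.09. A fall by nearly 0.9 on the log2 scale and no change both lie within it. In absolute size the change of RS3A exceeded that of 47.5% of the tested genes, close to the middle of the table. With its sign it lay lower, as 76.6% of the tested genes had a log2 fold change above that of RS3A. Of the 1259 tested genes with a mean of at least 100 FPKM, 48.7% had a smaller absolute change than RS3A. In the same set 85.0% had a log2 fold change above that of RS3A, and 92.5% had one below that of ACTIN. In that abundant set 30.6% were called, 22.3% higher and 8.26% lower, and 69.7% had groups that did not overlap.

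**Figure D1:**
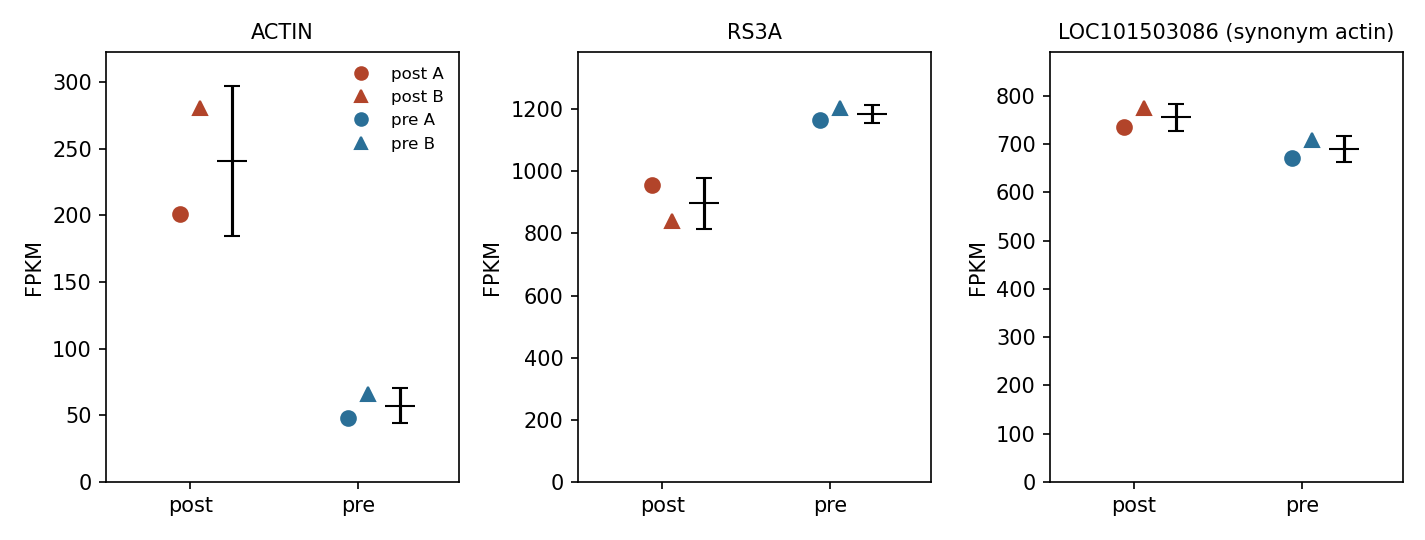
FPKM (vertical axis, from 0) of ACTIN, RS3A and LOC101503086, the other detected gene with an actin name, in post- and pre-fertilization ovules. Each coloured point is 1 library, and the black mark beside each pair is the mean with its SD (n = 2). ACTIN sits between 200.9 and 280.8 FPKM after fertilization and between 47.7 and 66.3 FPKM before, while the other panels show groups that lie much closer together.

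By rank among all 28783 genes, where 1 is the highest FPKM, ACTIN stood at place 704 in post A and 589 in post B, against 2507 in pre A and 1734 in pre B. RS3A stood at place 158 in post A and 233 in post B, against 124 in pre A and 134 in pre B. Genes not classed as protein-coding in the RefSeq gene table, unmatched ones included, fill many of the top places. Ranks among the 22942 genes classed as protein-coding there are therefore closer to the order of messenger RNAs. Among these, ACTIN took place 479 in post A and 324 in post B, against 2212 in pre A and 1449 in pre B. RS3A took place 35 in post A and 40 in post B, against 14 in pre A and 15 in pre B.

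These ranks compare each gene with the rest of its own library and do not depend on how libraries are scaled to each other. By either count ACTIN stood nearer the top in both post-fertilization libraries than in either pre-fertilization library, and RS3A stood farther from it. In share of protein-coding genes with a lower level, ACTIN exceeded 97.9% in post A and 98.6% in post B, against 90.4% in pre A and 93.7% in pre B. RS3A exceeded 99.85% in post A and 99.83% in post B, against 99.94% in pre A and 99.93% in pre B.

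**Figure D2:**
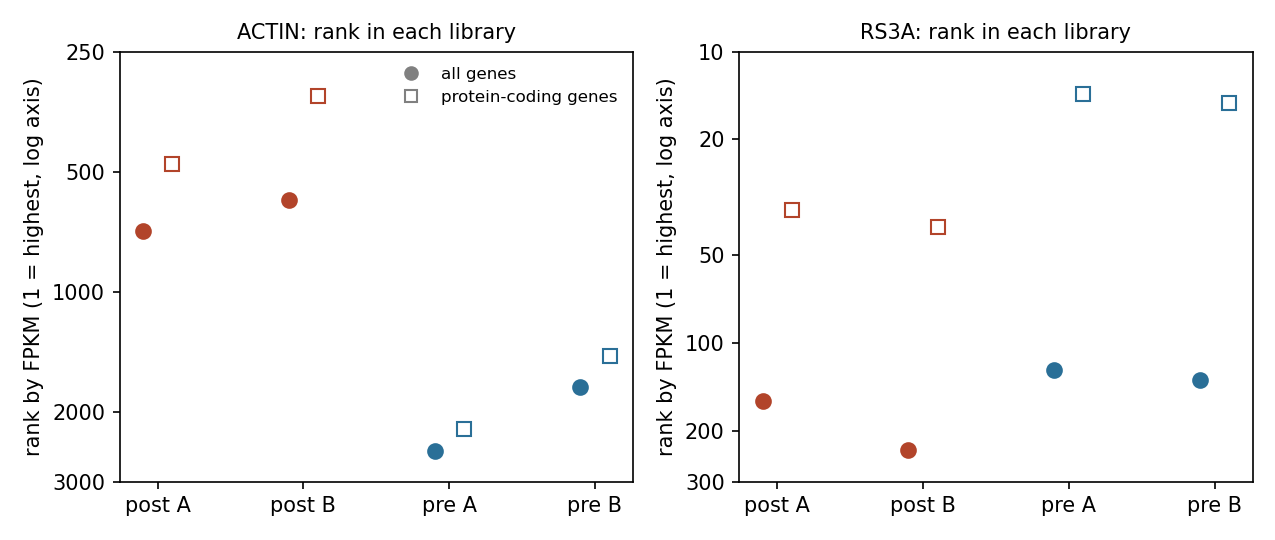
Rank by FPKM of ACTIN (left) and RS3A (right) in each library, on a log axis with 1 at the top end. Filled circles rank among all genes and open squares among protein-coding genes, red for post- and blue for pre-fertilization libraries. ACTIN lies higher in post A and B, at places 704 and 589 among all genes, and RS3A lies higher in pre A and B, at places 124 and 134.

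The ratio of ACTIN to RS3A within a library is likewise free of the scaling between libraries. The ratio came to 0.210 in post A and 0.335 in post B, against 0.0410 in pre A and 0.0550 in pre B. The mean log2 ratio was higher by 2.48 after fertilization, a 5.59-fold difference of geometric means. The groups were fully apart, but an exact two-sided permutation test of 2 against 2 libraries cannot go below p = 0.333, which is the value it gave. Leaving out single libraries gave differences between 2.15 and 2.82.

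Both genes can be placed in the chromosome as the deposited table gives it, in a build that is not stated. ACTIN spans 2577 bp on chromosome 3, from 30019721 to 30022297. The annotated span of LOC101509382, a protein-coding gene on its left, shares 231 bases with it, and no source used here gives strand, so reads in the shared stretch are uncertain. That neighbour stood at 1.11 and 1.20 FPKM in post A and B, against 0.379 and 0.865 FPKM in pre A and B (limma adjusted p = 0.208), far under ACTIN in each library. On its right LOC101510027, which begins 4306 bases beyond, stood at 11.6 and 10.8 FPKM in post A and B, against 13.5 and 12.9 FPKM in pre A and B (limma adjusted p = 0.189). Neither neighbour passed the test.

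RS3A spans 2101 bp on chromosome 8, from 663939 to 666039. Its neighbours are LOC101513230, which ends 2628 bases to the left, and LOC113788091, which begins 256 bases to the right. The left neighbour had 22.3 and 21.5 FPKM in post A and B, against 16.4 and 18.0 FPKM in pre A and B, and missed the threshold (limma adjusted p = 0.0727). The right neighbour stayed between 0.501 and 1.17 FPKM over the 4 libraries and was not tested. Both lay far below RS3A.

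ACTIN is 1 of 3 genes that the table or the RefSeq gene table names actin. ACT1, on chromosome 3 from 13378830 to 13382450, was listed at 0 in all 4 libraries. LOC101503086, which has actin as its synonym and lies on chromosome 5 from 47067346 to 47070356, had 734.7 FPKM in post A and 775.2 FPKM in post B, against 670.6 FPKM in pre A and 707.8 FPKM in pre B. Its groups did not overlap, but they lay close, and its log2 fold change of 0.13 did not pass (standard error 0.16, 95% interval from -0.28 to 0.54, limma adjusted p = 0.538). Its log2 fold change was -0.04 with quantile normalization. No source used here says how reads shared by similar actin copies were counted, so the split between them is uncertain.

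The interval of LOC101503086 ends below the start of the ACTIN interval. Within a library, ACTIN stood at 0.274 of LOC101503086 in post A and 0.362 in post B, against 0.0711 in pre A and 0.0936 in pre B, a log2 difference of 1.95 (exact two-sided permutation p = 0.333, the smallest possible). Summed over the 3 actin-named genes the level was 935.7 and 1056 FPKM in post A and B, against 718.2 and 774.1 FPKM in pre A and B. ACTIN made up 21.5% and 26.6% of that sum after fertilization, against 6.64% and 8.56% before. LOC101503086 thus held most of the actin-named signal in each library, and ACTIN was the lesser of the 2 detected. Any actin gene that carries no such name is missing from that sum.

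Other genes in common use as controls were examined through a list of 9 with reference gene symbols, ACTIN among them. Of the 8 that were tested 1 rose, which was ACTIN, and 0 fell, and 7 did not pass, where 36.5% of all tested genes were called, 21.0% higher and 15.5% lower. Without ACTIN, 0 of 7 passed limma's test, and 0 of 7 had an unadjusted p under 0.05, as 49.5% of all tested genes did. The median log2 fold change of the 8 was -0.02, beside 0.02 over all tested genes. Below, levels are in FPKM, which is per length of transcript.

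The polyubiquitin genes encode chains of ubiquitin, the tag for protein breakdown. UBQ10 had 1779 FPKM in post A and in post B, against 1666 and 1817 FPKM in pre A and B (log2 fold change 0.03, limma adjusted p = 0.922). UBQ5 had 1522 and 1128 FPKM in post A and B, against 1421 and 1488 FPKM in pre A and B (log2 fold change -0.15, limma adjusted p = 0.655). In both genes the groups overlapped, and in UBQ5 the widest gap lay between the post-fertilization libraries.

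EF1A, an elongation factor that brings aminoacyl-tRNA to the ribosome, had 1726 and 1408 FPKM in post A and B, against 1555 and 1709 FPKM in pre A and B (log2 fold change -0.06, limma adjusted p = 0.847). IF4A, an initiation factor that unwinds messenger RNA, had 269.0 and 236.6 FPKM in post A and B, against 290.8 and 319.2 FPKM in pre A and B (log2 fold change -0.27, limma adjusted p = 0.177). EF1A overlapped between the groups, while IF4A was lower in both post-fertilization libraries without passing.

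GAPDH, an enzyme of glycolysis, had 1018 and 1032 FPKM in post A and B, against 881.4 and 1001 FPKM in pre A and B (log2 fold change 0.13, limma adjusted p = 0.612). TUBB, a tubulin of the microtubules, had 170.6 and 152.1 FPKM in post A and B, against 170.7 and 192.2 FPKM in pre A and B (log2 fold change -0.17, limma adjusted p = 0.342). ACTIN thus stood above TUBB in both post-fertilization libraries, where TUBB was 0.849 and 0.542 of ACTIN, and below it before fertilization, where TUBB was 3.58 and 2.90 times ACTIN. The 3 of these 7 genes above 0, which are LOC101503086, GAPDH and UBQ10, turned below 0 with quantile normalization (GAPDH to -0.18, UBQ10 to -0.43), with equal sums by either set of genes and when scaled to ACTIN, and UBQ10 also with upper-quartile scaling. The 4 below 0 turned above 0 when scaled to RS3A.

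The 4 reported genes with a ribosomal protein name, RS3A among them, all had log2 fold changes below 0, between -0.40 for RS3A and -0.14, and a median of -0.25. The other 3 turned above 0 when scaled to RS3A. Of the 4, 0 passed limma's test, and 0 had an unadjusted p under 0.05, where 15.5% of all tested genes were called lower and 49.5% had such a p in either direction. All 4 had groups that did not overlap, as had 75.7% of all tested genes. RPL24 had 396.6 and 307.2 FPKM in post A and B, against 406.4 and 401.3 FPKM in pre A and B (limma adjusted p = 0.378). The transcript of this large subunit protein stood below RS3A in each library.

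RPL18, another large subunit protein, had 213.2 and 200.4 FPKM in post A and B, against 226.8 and 228.9 FPKM in pre A and B (limma adjusted p = 0.356). LOC101515768, with the synonym rl5, had 254.8 and 217.7 FPKM in post A and B, against 272.3 and 301.1 FPKM in pre A and B (limma adjusted p = 0.182). The size of each of these differences was under that of RS3A. LOC101509570, with the synonyms p40 and RAP40, lies outside the list and was chosen after its values were seen. It had 371.1 and 323.8 FPKM in post A and B, against 497.3 and 533.8 FPKM in pre A and B, and fell (log2 fold change -0.57, standard error 0.15, limma adjusted p = 0.0411). Of all tested genes 15.5% were called lower, and LOC101509570 is not counted with the list.

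**Figure D3:**
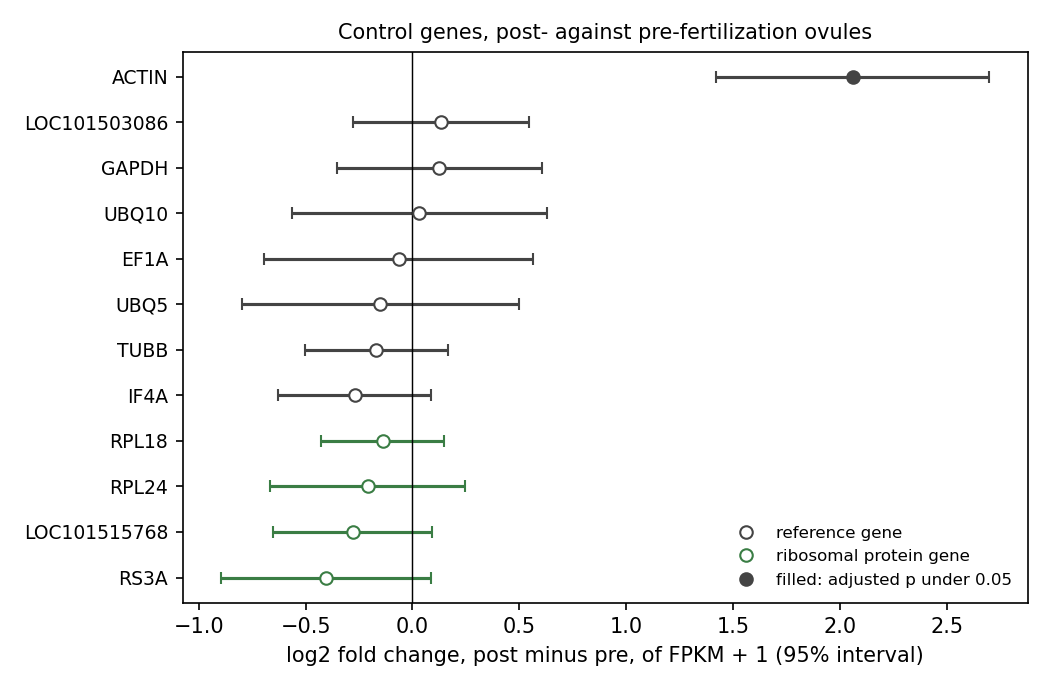
Log2 fold change of FPKM + 1, post minus pre, for the tested reference genes (grey) and ribosomal protein genes (green), with 95% intervals from limma. Filled points passed an adjusted p of 0.05. ACTIN alone, at 2.06, lies apart from 0, and RS3A, at -0.40, is lowest with an interval that reaches 0.09.

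Evenness among these 12 tested genes was described as the SD, over the 4 libraries, of the log2 ratio between a gene and each of the others, averaged over the other 11 genes. The value was 1.31 for ACTIN and 0.306 for RS3A, and between 0.229, for TUBB, and 0.293, for LOC101503086, for the rest. ACTIN was therefore the least even of the 12 and RS3A the next. Since each gene's average includes its ratio to ACTIN, the values were also taken among the 11 genes without ACTIN. RS3A was then at 0.190 and in place 9 of 11, counted from the most even, in a range from 0.119 for TUBB to 0.208 for LOC101503086. Within groups ACTIN was also the widest, with an average SD of 0.460 over the post-fertilization libraries and 0.266 over the pre-fertilization libraries. RS3A had 0.130 and 0.0752 there, averages over the other 11 genes that again include its ratio to ACTIN.

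**Figure D4:**
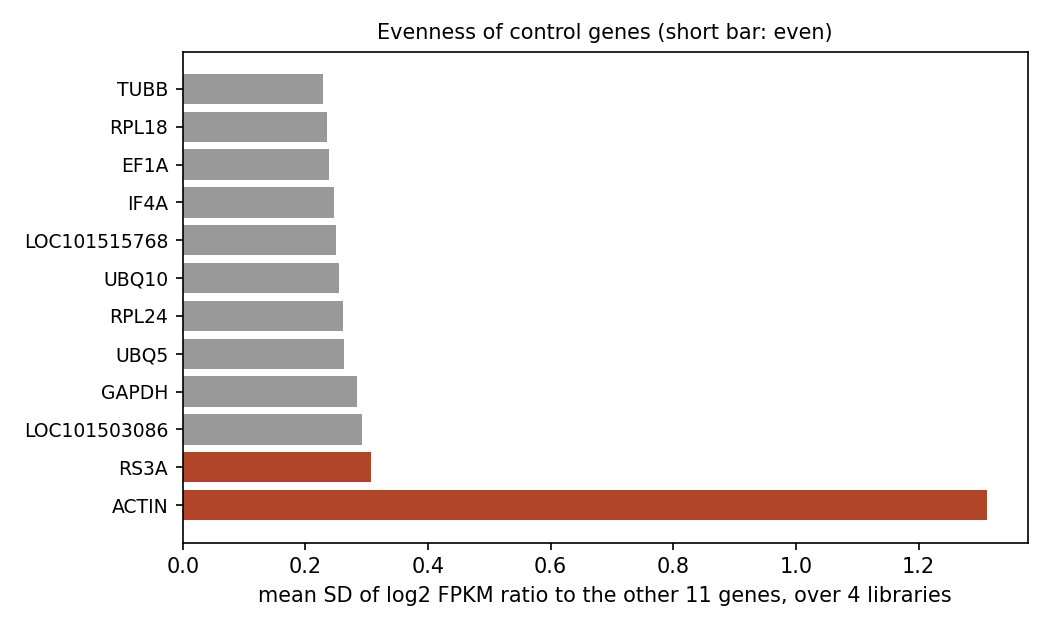
Mean SD of the log2 FPKM ratio of each control gene to the other 11, over the 4 libraries (bars, from 0), with ACTIN and RS3A in red. ACTIN reaches 1.31, and the other 11 genes lie between 0.229 and 0.306.

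What either gene would do as the single internal control was computed by scaling each library so that the control had the same level in all 4. With ACTIN as the control, the ratio of each of the other 10 control genes to ACTIN was lower after fertilization, by a log2 difference between -2.36 and -1.95. EF1A, for example, was 8.59 and 5.01 times ACTIN in post A and B, against 32.6 and 25.8 times in pre A and B. With RS3A as the control, the same 10 genes were all higher after fertilization, by between 0.12 and 0.54 on the log2 scale. EF1A was then 1.81 and 1.68 times RS3A in post A and B, against 1.34 and 1.42 times in pre A and B. In each of these ratios the groups did not overlap. The control's own difference enters every one of them, so they are not separate results. With the authors' scaling, the levels themselves did not overlap between groups for 75.7% of all tested genes.

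Over the whole table, the median log2 fold change was -1.81 with ACTIN as the control, 0.38 with RS3A and 0.02 with the authors' scaling. The share of tested genes with a log2 fold change above 0 was 7.68%, 74.1% and 51.5% in the same order. Scaling to a single gene shifts the log2 fold change of nearly every gene by about the same amount, so the following counts show the size of that shift and are no separate result. Of the 3754 genes called higher with the authors' scaling, 2527 (67.3%) had a log2 fold change below 0 with ACTIN as the control and 0 with RS3A. Of the 2768 genes called lower, 0 had a log2 fold change above 0 with ACTIN as the control and 27 (0.975%) with RS3A. Scaled to RS3A, ACTIN kept its rise (log2 fold change 2.46, limma adjusted p = 0.00507). Scaled to ACTIN, RS3A was called lower (log2 fold change -2.48, limma adjusted p = 4.32e-06).

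Calls scaled to ACTIN rest on an unusual fit. The gap between the ACTIN values of a group enters every gene, and limma then treats the spread as known (infinite prior degrees of freedom), so its p-values there are too small. With ACTIN as the control 89.1% of tested genes were called, 817 (4.58%) higher and 15078 (84.5%) lower. With RS3A 41.7% were called, 6337 (35.5%) higher and 1113 (6.24%) lower. With the authors' scaling 57.6% of called genes were higher, and with median-of-ratios scaling 57.05%. The share was 42.2% with quantile normalization and 47.5% with upper-quartile scaling. It was 43.3% with equal sums over genes of at least 300 bp and 26.7% with equal sums over all genes. Scaled to ACTIN it was 5.14%, and scaled to RS3A 85.1%.

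**Figure D5:**
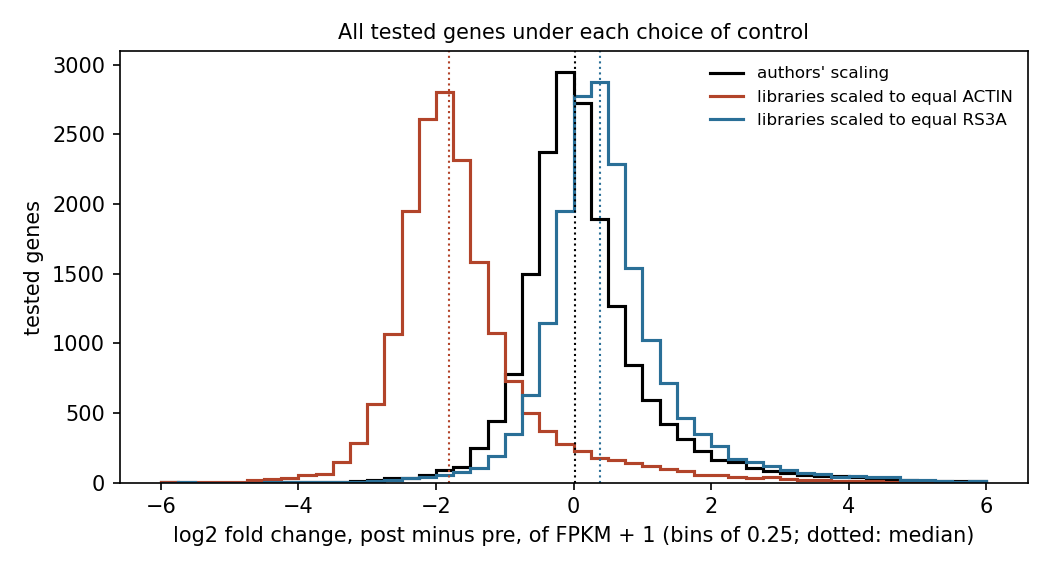
Number of tested genes (vertical axis) by log2 fold change of FPKM + 1, post minus pre, in bins of 0.25, with the authors' scaling and with the libraries scaled to equal ACTIN or equal RS3A. Dotted lines are the medians, 0.02, -1.81 and 0.38, and between 22 and 56 genes per curve lie beyond the axis.

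The genes most like each control over the 4 libraries were taken as the 3 with the smallest Euclidean distance of log2(FPKM + 1), and the table gives them identifiers only. For ACTIN they were LOC101492513 at a distance of 0.471, LOC101490358 at 0.490 and LOC101495097 at 0.522. LOC101492513 had 198.6 and 251.4 FPKM in post A and B, against 65.2 and 66.1 FPKM in pre A and B. For RS3A they were LOC101508670 at 0.228, LOC101506117 at 0.306 and LOC101499337 at 0.327. LOC101508670 had 909.3 and 732.5 FPKM in post A and B, against 1095 and 1234 FPKM in pre A and B. By mean FPKM over the 4 libraries ACTIN took place 896, between LOC101498147 and LOC101506045, and RS3A place 161, between LOC113785236 and LOC101490631. Equal means hid unlike patterns: LOC101506045, just below ACTIN with a mean of 148.8 against 148.9 FPKM, had 250.6 and 344.2 FPKM in post A and B, was listed at 0 in pre A and stood at 0.240 FPKM in pre B.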

How the data were processed

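The deposited table gives 1 FPKM value per gene and library, and the authors made these FPKM values with tools that, per the submitters' processing notes, include FastQC, fastp, HISAT2, Cufflinks and Cuffdiff, with no version or role. Column names give each library's group only. The filter kept 17849 genes that reached 1 FPKM in 2 or more libraries. Their log2(FPKM + 1) values entered limma 3.58.1 (R 4.3.3) with group as the only term and a variance trend. P-values were two-sided, adjusted after Benjamini and Hochberg over all tested genes, and called under 0.05. Each gene had 2 residual degrees of freedom, with 2.55 more from the prior. The code was also tried on simulated data with the same spread for all genes, which does not bear on the calls made here. Folds are ratios of mean FPKM, and log2 fold changes understate the change of low genes. Names and classes came from a RefSeq gene table of another assembly (Cicar.CDCFrontier_v2.0), which matched 25497 genes and whose coordinates were not used. Chromosome numbers are those most genes of a sequence carry there. Scaling alternatives used factors with a geometric mean of 1 on the same tested genes.

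The genes and lists were chosen with earlier results of these data known. Reference genes had symbols or synonyms such as actin, GAPDH, EF1A, IF4A, TUB or UBQ with a number, and ribosomal genes RPS, RPL, RS or RL with a number. A gene that would enter the lists is not reported here and is left out of their counts. Named were the pair, all other members of both lists (ACTIN and RS3A counted apart), the 3 nearest genes by distance and the neighbours in mean level. Genes beside the pair on the chromosome were added later, by position, and LOC101509570 was added after its values were seen. A planned comparison with related proteins was not run, as no protein sequence was at hand. The alternatives were other pseudocounts, filters and scalings, no variance trend and leaving out each library. Figures were drawn with matplotlib 3.10.9.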

Additional observations from a re-analysis of the deposited data

How the results depend on the processing

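The log2 fold change of ACTIN stayed above 0 under all 15 alternatives, from 1.29 to 2.46, and 4 of them ended its call: no filter on low values (2.06), equal sums over all genes (1.29), and leaving out pre A or pre B. Leaving out single libraries gave 1.82 to 2.30. That of RS3A stayed below 0 under 15 alternatives, and it passed the threshold under 1 of them, scaling to ACTIN (-2.48). The RS3A value was -0.70 with quantile normalization and -0.56 with equal sums over genes of at least 300 bp. With equal sums over all genes it was -1.18, below the 95% interval of the main fit. The median of all tested genes was -0.66 under that scaling. Of all tested genes 6522 were called, against 2660 with no filter and 15895 scaled to ACTIN, and 653 to 7404 without single libraries. The counts of 653 and 776 came from the runs without pre B and pre A. Counted over protein-coding genes, the mean rank after fertilization was 401.5 for ACTIN and 37.5 for RS3A, and over genes of at least 300 bp 416 and 39.0. For RS3A before fertilization it was 14.5 and 16.5 in the same order. The median log2 fold change of the reference genes was -0.44 with quantile normalization, and 0 of them were called with no filter and 0 to 1 without single libraries. The median of the ribosomal protein genes was -0.45 with quantile normalization and from -0.39 to -0.13 without single libraries, lowest without post A. The causes were not tested, except that runs without a library hold fewer samples and the run with no filter more genes. No paired analysis was possible because the column names do not carry the replicate numbers of the labels. The alternative with a stricter protein identity was not run. Absolute depth is unknown, so no counting interval is given, and 2 libraries per group limit each test.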
